A study of Mus musculus with 11 samples.

Results

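A set of 7 genes known as tumour suppressors of breast cancer was read for DNA copy number in mammary tumours of Pik3ca-mutant mice. The genes are Trp53, Rb1, Cdkn2a, Brca1, Brca2, Atm and Cdh1, chosen by name, with every array probe whose annotated gene name is one of them. That gave 7 of the 20740 gene names with a probe and 47 of the 170305 probes.

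The tumours arose in 11 Pik3ca H1047R mice of mixed FVBN/Bl6 strain, 1 tumour per animal (tumours 1 to 11), and each tumour's DNA was compared on one array with DNA from the liver of that mouse. All mice carry the Pik3ca H1047R allele, an activating mutation of the catalytic subunit of PI3-kinase, so the tumour and the liver of a pair share that genotype. The cell type or promoter that drives the allele, and the age of the mice, are not given in the labels used here. Tumour DNA carried Cy5 and liver DNA Cy3, and a value below 0 means less DNA in the tumour. DNA content was measured, so neither expression nor point mutations of these genes were read. With 1 array per mouse, it is the 11 arrays that bound the precision of a mean.

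A tumour suppressor restrains growth or guards the genome, and many are disabled by the loss of one copy and a mutation in the other. Trp53 encodes p53, which halts or kills cells with damaged DNA, and Atm is the kinase that signals double-strand breaks to it. Rb1 blocks entry into S phase, and Cdkn2a encodes p16Ink4a and p19Arf, which act upstream of Rb1 and p53. Brca1 and Brca2 repair double-strand breaks by homologous recombination, and Cdh1 encodes E-cadherin, the adhesion protein of epithelia that is typically lost in lobular breast cancer.

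The results use 3 measures. The gene value is the mean log2 ratio of tumour over liver over the probes of a gene, relative to the array median. The value relative to flanks subtracts the mean of the other probes within 5 Mb on both sides. The call comes from dividing each chromosome into segments of constant level, where a segment of at least 10 probes with a mean of at most -0.20 is a loss and one of at least 0.20 a gain. If the array median stands for 2 copies, -0.20 corresponds to 1 copy lost in 25.9% of the cells, so normal cells in the sample move every value towards 0.

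The noise SD between neighbouring probes had a median of 0.18 over arrays and was 0.55 in tumour 9 and 0.51 in tumour 11. Over all probes, the array of tumour 11 correlated at -0.60 with tumour 4, -0.61 with tumour 5, -0.65 with tumour 9 and -0.32 with tumour 10. It correlated at 0.25 with tumour 6 and 0.08 with tumour 1, and at -0.22 to -0.04 with tumours 2, 3, 7 and 8. Its direction is therefore not settled, although the labels give it the same dyes as the others, and the tests and counts of signs that rest on it are also given with its sign turned. No member lay in a call in tumour 11, so turning it left every member's call as it was. In tumour 7 the most common level lay 0.16 above the array median, and member calls that change with this centring are named.

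The members are covered unevenly, which sets how small a change could be read. On mm9, Rb1 has 15 probes (chr14:73595475-73722998), Atm 10 (chr9:53255595-53339466), Brca1 7 (chr11:101353838-101410077) and Cdh1 7 (chr8:109132778-109194011). Brca2 has 4 probes (chr5:151336312-151363117), Trp53 2 (chr11:69395366-69404744) and Cdkn2a 2 (chr4:88927265-88936347). Each range runs from the first to the last probe that the array annotation gives the gene, and whether a probe lies in an exon or an intron was not analysed here. Taking the noise SD over the square root of the number of probes as the standard error (SE) of a gene value, 73 of the 77 gene and tumour pairs could show 1 copy lost in all cells (a log2 of -1) at 3 SE. In 58 pairs 1 copy lost in 50% of the cells (-0.42) would exceed 3 SE.

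The probes that matter most for the results are those around Cdkn2a, where a change of level in tumour 3 stops short of the gene, and the first of the 2 Trp53 probes, which differ in level. They are printed as the array design gives them, in lower case with no base singled out, because the whole probe is the measured target.
AF032968, last probe before the step (chr4:88904036-88904095): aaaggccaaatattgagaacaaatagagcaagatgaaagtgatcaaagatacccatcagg
AF032968, first probe after the step (chr4:88917436-88917495): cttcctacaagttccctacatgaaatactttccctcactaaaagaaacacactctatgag
Cdkn2a, first probe (chr4:88927265-88927324): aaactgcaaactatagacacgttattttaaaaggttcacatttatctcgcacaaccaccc
Cdkn2a, second probe (chr4:88936288-88936347): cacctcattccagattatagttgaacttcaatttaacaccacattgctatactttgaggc
Trp53, first probe (chr11:69395366-69395425): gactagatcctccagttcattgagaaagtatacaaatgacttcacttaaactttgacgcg

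Called losses and gains of these genes were counted beside those of all genes. The levels of the losses fell short of 1 copy lost in all cells. The share of normal cells in each tumour was not measured. A loss in every tumour cell and a loss in some of them can therefore not be told apart. Over the 77 pairs, 3 lay in a called loss and 5 in a called gain, 3.90% and 6.49% of them, and the same calls covered 6.99% and 6.4% of all pairs of a gene and a tumour. Segments of at most 10 Mb made up 1 of the losses and 2 of the gains, and covered 1.88% and 1.33% of all pairs. The losses were Trp53 in tumours 7 and 8 and Atm in tumour 8, where called losses held 26.5% (tumour 7) and 20.7% (tumour 8) of all genes. The gains were Brca1 in tumours 2 and 8, Cdh1 in tumours 2 and 7, and Cdkn2a in tumour 8, where gains held 20.2% (tumour 2), 5.73% (tumour 7) and 14.9% (tumour 8) of all genes. Rb1 and Brca2 were in no call in any tumour, as were 27.9% of all genes. The 8 calls fell in 3 tumours, and the other 8 tumours had none at a member. Among those 8, tumours 9 and 10 had no gene in a called gain, and 0.0338% and 0.00964% of all genes in called losses. In tumour 5 gains held 0.0434% and losses 1.96%. Tumour 1 had 21.1% of all genes in called losses, and no member was among them.

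**Figure D1:**
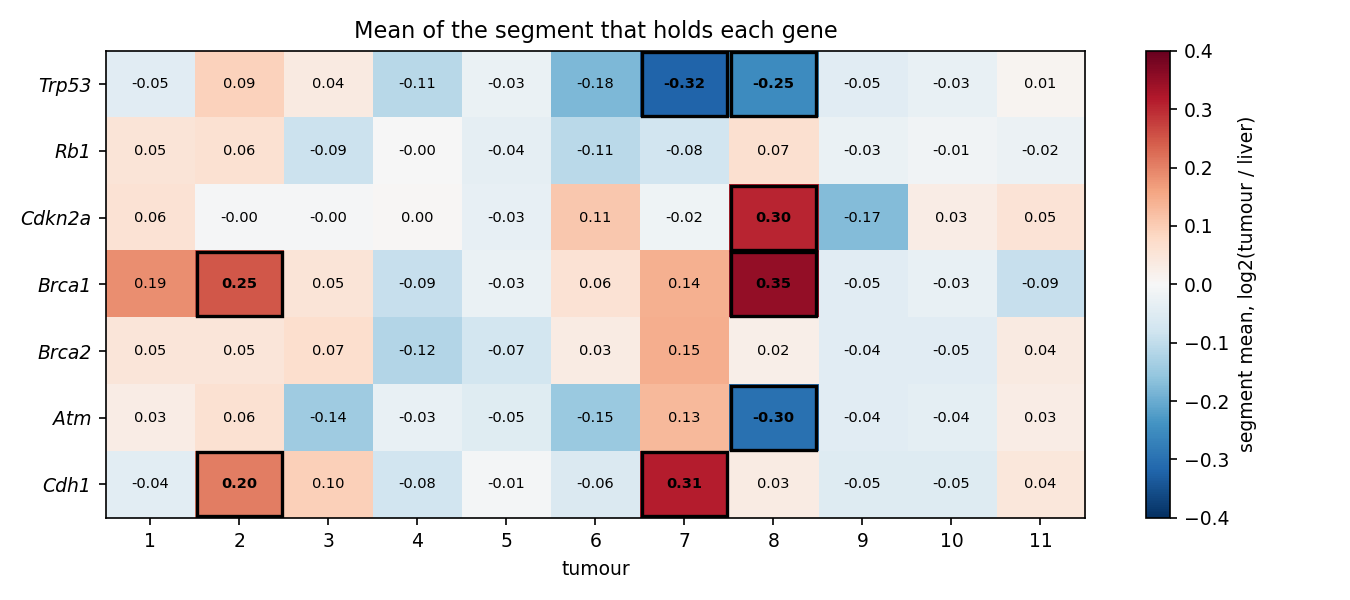
Mean log2 ratio of the segment that holds each gene (rows) in each of the 11 tumours (columns), with called losses and gains outlined and in bold. Trp53 reached -0.32 in tumour 7 and -0.25 in tumour 8, Atm -0.30 in tumour 8, and Brca1 0.35 in tumour 8.

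None of the 77 gene values came near the level of a copy lost in every cell. They ran from -0.38 (Atm in tumour 8) to 0.39 (Cdkn2a in tumour 8), and the segments holding the genes from -0.32 to 0.35. Of the single probe values of the members, 5 lay at or below -1, the lowest at -1.56, and all 5 were in the noisy arrays of tumours 9 and 11. No segment of 5 or more probes that held a member came close to that level, so a homozygous deletion of a whole member present in most cells was not seen in any tumour. A deletion smaller than the spacing of the probes could not be read.

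**Figure D2:**
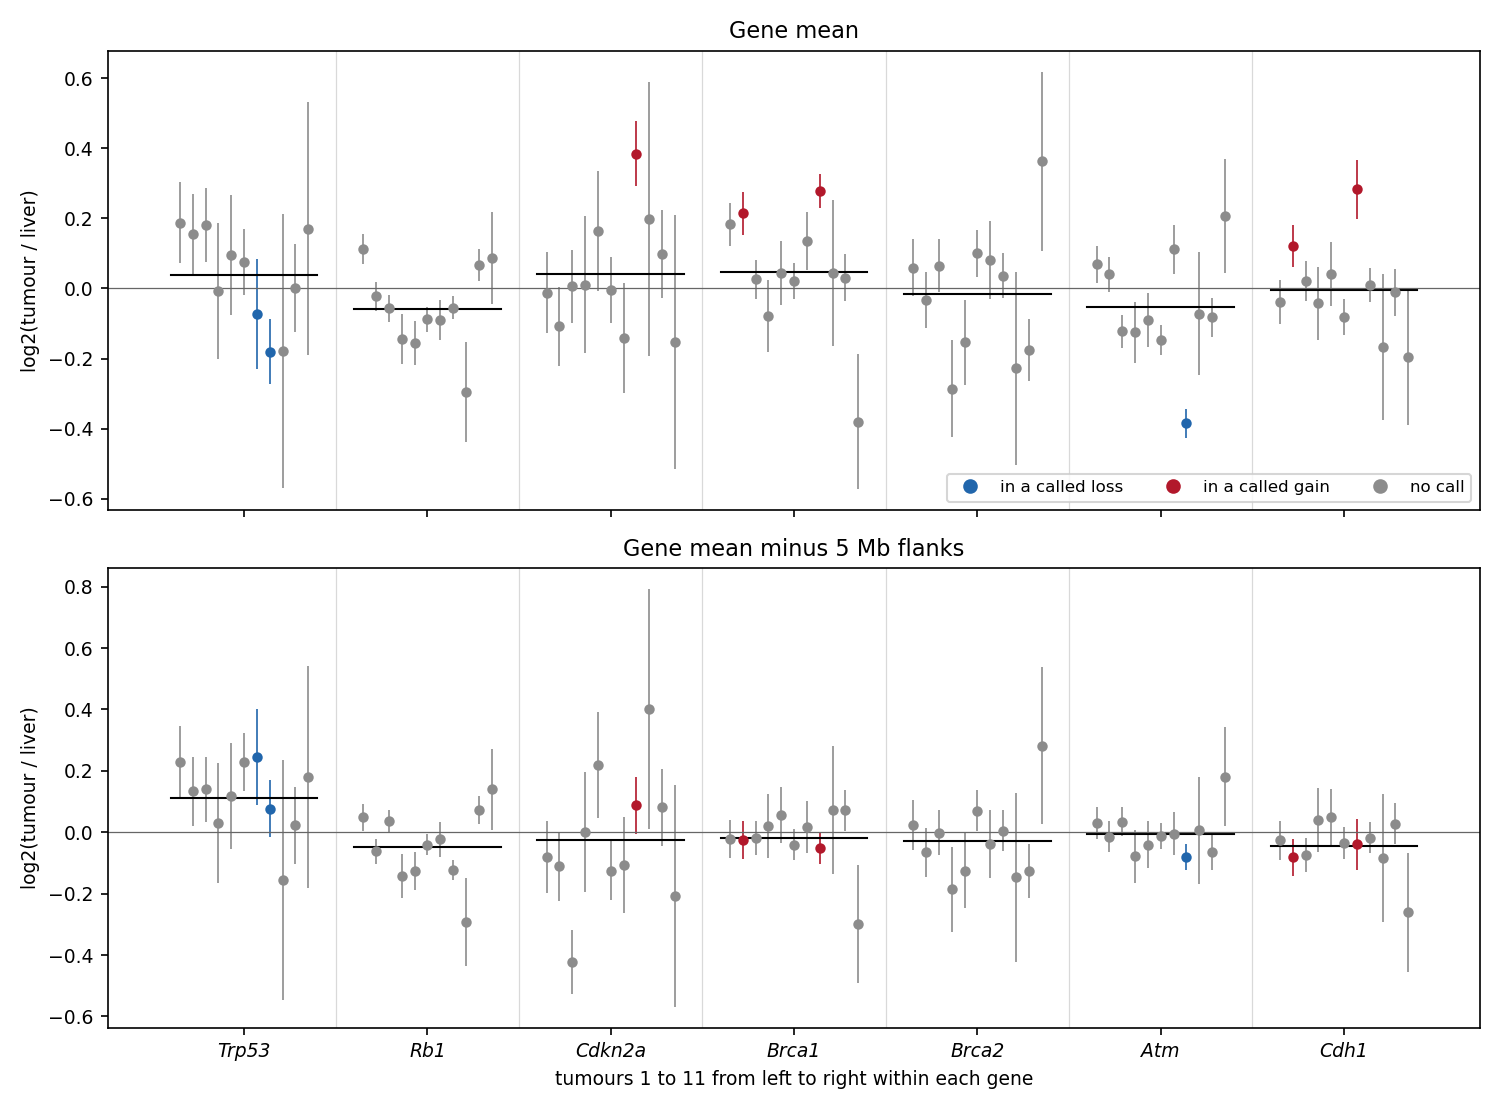
Gene value (top) and value relative to the 5 Mb flanks (bottom) on the log2 scale for the 7 genes, with tumours 1 to 11 from left to right within each gene, the array noise SE as bars, the mean over tumours as a black line, and the call of the segment as colour. The called losses stand out in the upper panel for Atm at -0.38, while in the lower panel the coloured points lie near 0, apart from Trp53 in tumour 7 at 0.24.

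Averaged over the tumours, no member passed the test against liver. In limma, fitted over all 20740 genes with Benjamini-Hochberg adjustment, 1.98% of genes were called lower and 2.84% higher, and 0 of the 7 members passed. The adjusted p of the members ran from 0.448 (Rb1) to 0.956 (Cdh1), and their unadjusted p from 0.195 to 0.908. Relative to flanks, 0.993% of all genes were lower and 1.32% higher, and again 0 of 7 passed, with Trp53 nearest at an unadjusted p of 0.0086. The median of the 7 means was -0.01, and that of all genes was -0.01. With tumour 11 turned, limma called no member either.

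p53 stands at the centre of the damage response, and the stretch of chromosome 11 that holds Trp53 was lost in 2 of 11 tumours. Of all genes, 25.8% lay in called losses in at least 2 tumours. In tumour 7 the called segment ran over chr11:37532546-70989921, with 2450 probes at a mean of -0.32. In tumour 8 it ran over chr11:67402796-70976983, 3.57 Mb with 347 probes at -0.25. At 2 copies per cell, these levels correspond to 1 copy lost in 39.9% of the cells of tumour 7 and in 32.0% of those of tumour 8. With each array centred on its most common level instead of its median, the shares were 57.0% and 34.3%.

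The loss in tumour 8 is short only as the segments were drawn. It is parted from further loss on the far side by 11 probes at 0.45 (chr11:70989862-71107103), and from loss on the near side by a small difference in level, -0.31 against -0.25. The same 11 probes were a segment of their own in tumours 1 (0.47) and 2 (0.59), without a loss at Trp53. Segments inside that interval read 0.52 in tumour 7 and -0.43 in tumour 6. In tumour 3 the segment with Trp53 ended at chr11:70989921 and the next segment read 0.54, also without a loss at Trp53. Joining called losses over interruptions of at most 0.5 Mb, a rule made after seeing the data, gave 1 run of 74.6 Mb in tumour 8 (chr11:3107005-77662641) at a mean of -0.27, with 58.4% of the probes of the chromosome. The same rule gave 55.3 Mb in tumour 7 (chr11:37532546-92792789) at -0.33, with 47.3% of the probes. Both Trp53 losses were parts of losses over a large stretch of the chromosome.

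Another tumour was just short of a call. In tumour 6 the segment with Trp53 (chr11:62187264-70673774) had 694 probes at -0.18, which the threshold of 0.15 and the centring on the most common level both turned into a loss. In the other 8 tumours the segment with Trp53 lay between -0.11 in tumour 4 and 0.09 in tumour 2.

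The same stretch can be compared over all tumours. It was taken from the call in tumour 8 and lies inside the called segment of tumour 7. The values of these 2 tumours therefore restate their calls. Over the 347 probes of tumour 8's segment, the mean was -0.25 in tumour 8, -0.31 in tumour 7 and -0.16 in tumour 6, against -0.06 to 0.06 in the other 8. In tumour 8, 94 of the 95 genes in it were below 0, and 85 of 95 in tumour 7. Wrap53, which lies next to Trp53 and encodes a telomerase and Cajal body protein, was at -0.39 in tumour 7 and -0.42 in tumour 8. Efnb3, the ephrin-B3 gene on the same side, was at -0.33 and -0.16.

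The 2 Trp53 probes differed from each other inside the lost stretch. The gene value was -0.07 (noise SE 0.16) in tumour 7 and -0.18 (noise SE 0.09) in tumour 8, and over all tumours it ran from -0.18 to 0.19 with a median of 0.08. The first probe read -0.27 in tumour 7 and -0.29 in tumour 8, and also -0.30 in tumour 4, -0.17 in tumour 5 and -0.67 in tumour 9, which had no call there. The second read 0.12 and -0.07 there, and its mean over tumours was 0.13 ± 0.15 (SD, n = 11) against -0.05 ± 0.33 for the first. The probes disagreed most in tumour 9, with -0.67 and 0.32.

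Relative to its flanks Trp53 was above 0 in 10 of 11 tumours, at a mean of 0.11 ± 0.12 (SD, n = 11). That did not pass limma over all genes (adjusted p 0.127). With the slide as a random block the adjusted p was 0.0145, at an estimated correlation within slides of -0.17, and without tumour 9 it was 0.0351 at a mean of 0.14. It was 0.0275 with the normexp background correction, 0.016 with dim spots left out and 0.183 with tumour 11 turned, when 9 of 11 tumours were above 0. The slide means were 0.12, 0.07 and 0.15. Among all genes with 2 probes, 9.85% had a mean relative to flanks at least as high as Trp53. Which of its probes gives the level of the gene was not tested.

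Brca1 lies on the same chromosome as Trp53 in the mouse, as in the human, but lay in no called loss. It lay in called gains in tumour 2 (chr11:97500246-103313763, 566 probes at 0.25) and tumour 8 (chr11:101067416-105748287, 417 probes at 0.35). In tumour 1 a segment of 785 probes at 0.19 fell just short of the threshold. The gene value was 0.21 in tumour 2, 0.28 in tumour 8 and 0.18 in tumour 1, and its neighbour Nbr1, an autophagy receptor, stood at 0.52, 0.29 and 0.27 there. Both gains continued beyond the segment, over runs of 24.3 Mb in tumour 2 and 44.0 Mb in tumour 8. Brca1 relative to flanks was -0.03 and -0.05 in these tumours, so the gene followed its surroundings.

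The lowest Brca1 value was -0.38, in tumour 11, where the noise SE was 0.19 and the segment read -0.09. With that array turned the value is 0.38. The median over tumours was 0.04, and 9 of 11 values were above 0, or 10 of 11 with it turned. In tumour 7 Brca1 was at 0.14 in a segment at 0.14 that ends at chr11:101642621, and the next 55 probes (chr11:101653544-102252150) drop to -0.33. Centred on the most common level, Brca1 in tumour 7 was at -0.03 and its segment at -0.02.

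The level changed between Trp53 and Brca1 in several tumours, and the mean difference of the gene values was smaller than its spread. In tumour 8 the segments were at -0.25 and 0.35, and the change from loss to gain lies between chr11:77662641 and chr11:77669270. In tumour 7 they were at -0.32 and 0.14, in tumour 6 at -0.18 and 0.06, and in tumour 1 at -0.05 and 0.19. Trp53 minus Brca1, taken over the gene values, ran from -0.46 in tumour 8 to 0.55 in tumour 11, with a mean of -0.01 ± 0.25 (SD, n = 11) and 5 tumours below 0. The exact two-sided sign-flip permutation test gave p = 0.918, where the smallest possible p is 0.000977. With tumour 11 turned the mean was -0.11 (exact permutation p = 0.164). The difference was larger between the levels around the genes, a comparison added after seeing the data. Between the segments that hold them it had a mean of -0.15 ± 0.22 (SD, n = 11; exact permutation p = 0.0391), with 7 tumours below 0, 1 above, and 3 at 0 because 1 segment holds both genes. Between their 5 Mb flanks it was -0.14 ± 0.22 (SD, n = 11; exact permutation p = 0.0576), with 7 tumours below 0 and 4 above. Turning tumour 11 gave -0.17 (exact permutation p = 0.00781) for the segments and -0.15 (exact permutation p = 0.0322) for the flanks. For the segments that is the smallest p the test can give, because the 3 differences at 0 have no sign to flip.

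Atm was lost in 1 tumour. In tumour 8 its 10 probes had a mean of -0.38 (noise SE 0.04, SD over probes 0.08) and lay in a loss of 40.5 Mb (chr9:34957585-75470164) with 3222 probes at -0.30. That level corresponds to 1 copy lost in 37.2% of the cells. Called losses joined as above covered 106 Mb and 86.5% of the probes of chromosome 9, so nearly the whole chromosome was lower. Npat, whose promoter region adjoins that of Atm, was at -0.45, and Cul5, a ubiquitin ligase scaffold, at -0.38. In the other 10 tumours Atm ran from -0.15 in tumour 6 to 0.21 in tumour 11. With tumour 11 turned the highest value was 0.11, in tumour 7, which was -0.05 centred on the most common level. The value of Atm relative to flanks lay between -0.08 and 0.03 in 10 of 11 tumours.

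Rb1 is the best covered member and showed no call. Its 15 probes gave gene values from -0.30 (tumour 9, noise SE 0.14) to 0.11 (tumour 1), with a median of -0.06, and 8 of 11 tumours were below 0, or 9 of 11 with tumour 11 turned. The segments holding Rb1 stayed between -0.11 (tumour 6) and 0.07 (tumour 8), and spanned from 7.8 Mb to the whole length read of chromosome 14. Relative to flanks, Rb1 in tumour 8 was at -0.12, which is -3.64 in units of its noise SE, but far from the -0.40 asked of a focal loss. Losses at Rb1 came with 2 other settings: the lower segmentation penalty in tumours 4 and 9, and the centring on the most common level in tumour 7.

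Cdkn2a, a gene often deleted in other mouse and human tumours, lay in no called loss here. Its gene values ran from -0.15 (tumour 11) to 0.39 (tumour 8), with a median of 0.01. In tumour 8 it lay in a gain over chr4:77978284-110253077 with 2154 probes at 0.30, part of a run of 107 Mb. In tumour 9 the whole of chromosome 4 was 1 segment at -0.17, and the 2 probes read 0.20 with a noise SE of 0.39.

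Tumour 3 held the only focal reading among the 77 pairs, with the gene at the level of the array median and its flanks higher. The focal rule asked for a value relative to flanks of at most -0.40 or at least 0.40 and at least 3 SE from 0. Over all pairs of a gene and a tumour it was met by 0.612% downwards and 0.651% upwards, and among the members by 1 and 0. In tumour 3 the downward share was 0.487%. Cdkn2a in tumour 3 was at 0.01 itself, and its flanks had a mean of 0.43. The 402 probes of the 5 Mb before the gene had a mean of 0.62, and the 172 probes of the 5 Mb after it -0.02.

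The step lies next to the gene. The last probe of the gain, at 0.41, ends 23.2 kb before the first Cdkn2a probe, and the next probe, already at -0.13, lies between them. The 7 probes in the 100 kb before the step had a mean of 0.51 with the lowest at 0.36, and the 5 in the 100 kb after it a mean of -0.05. The gain reached back over 17.2 Mb (chr4:71661976-88904095), with 1033 probes at 0.62 and 62 annotated genes. Mtap, a methionine salvage enzyme commonly lost together with Cdkn2a in human tumours, lay inside it at 0.57. All 10 segmentations compared put the step at the same probe, but not all of them could have moved it. Centring on the most common level only shifts the values, and turning another tumour's array leaves this one unchanged. The deposited log ratios and the authors' values are nearly the same as the main ones, so they test little. The step also stayed with normexp, with dim spots left out, with a GC fit, and with a lower and a higher segmentation penalty. With flanks of 2 Mb or 10 Mb the value relative to flanks was -0.35, short of the focal rule.

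**Figure D3:**
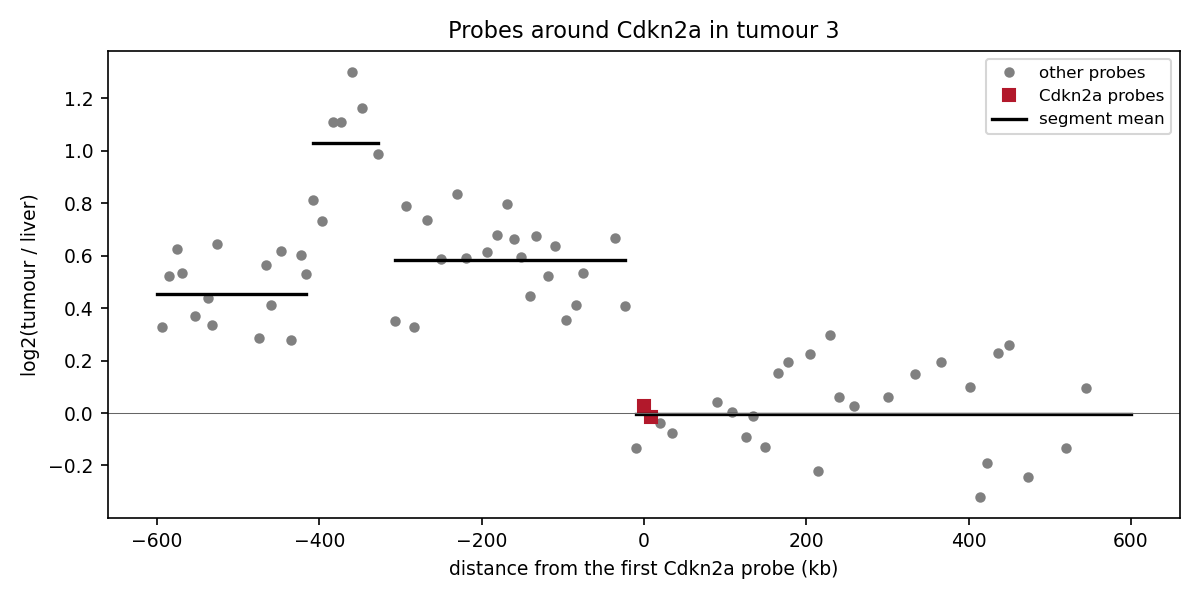
Log2 ratio of tumour over liver of single probes around Cdkn2a in tumour 3, as distance in kb from the first Cdkn2a probe, with the 2 Cdkn2a probes as red squares and segment means as black lines. The segment before the gene is at 0.58 and ends 23.2 kb from it, and the segment with Cdkn2a is at 0.00 on this scale.

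Brca2 was in no call, and its segments ran from -0.12 (tumour 4) to 0.15 (tumour 7), the latter -0.02 centred on the most common level. The gene values of its 4 probes reached -0.29 in tumour 4 (noise SE 0.14), -0.23 in tumour 9 and 0.36 in tumour 11 (noise SE 0.26), and the median was 0.04. With tumour 11 turned its value was the lowest, at -0.36, and the median was -0.03. Relative to flanks the values in tumours 4, 9 and 11, the last not turned, were -0.19, -0.15 and 0.28, none beyond 3 SE. Fry, a large neighbouring gene with 25 probes, was at -0.06 in tumour 4 and 0.04 in tumour 9.

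Cdh1 lay in no called loss. It lay in a gain of the whole of chromosome 8 in tumour 7 (8152 probes at 0.31), and in tumour 2 in a segment of 18.7 Mb (chr8:103760853-122471602) at 0.20, on the threshold. The latter was a gain in 8 of the 13 other settings of the calls, some of which, as turning tumour 11, could not change it. Cdh1 in tumour 2 was in no gain with normexp, with dim spots left out, or at a threshold of 0.3. The same held for the deposited log ratios and the authors' values. Joined with its neighbours, the segment of tumour 2 formed a run over 99.8% of the probes of chromosome 8 at 0.30. Centred on the most common level, tumour 7's segment was at 0.15 and no longer a gain. The gene values ran from -0.20 (tumour 11) to 0.28 (tumour 7), with a median of -0.01. Cdh3, the neighbouring P-cadherin gene, was at 0.32 in tumour 7 and 0.36 in tumour 2.

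Most member values were close to those around them. Relative to flanks, 49 of the 77 pairs lay within 0.10 of 0, and 2 were at least 3 SE from 0 (Rb1 in tumour 8 and Cdkn2a in tumour 3). The shares of all pairs within these limits are not given here, so the counts do not set the members apart from other genes. The probes of the members were alike in GC content, 36.2% to 38.3% per gene. For each member, the gene with 3 or more probes on another chromosome whose 11 values were nearest was Tmx3 for Trp53, Stag2 for Rb1, Gpr45 for Cdkn2a, Ndc80 for Brca1, Nup188 for Brca2 and Zfp277 for Atm, and for Cdh1 a transcript model without a symbol on chromosome 2. Their mean absolute differences were 0.05 to 0.06 per tumour, against medians of 0.16 to 0.20 over the genes compared, which all come from the same arrays. Each was picked as the nearest of 8732 to 8988 genes, so a difference below the median was fixed by that choice.

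The partners of these genes were read from 6 lists, with 82 of 94 listed genes on the array. Called losses covered 75 of their 902 pairs (8.31%) and gains 44 (4.88%), against 6.99% and 6.4% of all pairs. Of the 75, 66 were in tumours 1, 7 and 8, which held 88.8% of the loss pairs of all genes. A called loss of at most 10 Mb in any tumour covered 20 of the 82 genes, and 3900 of all 20740. In limma 1 of the 82 was called lower and 0 higher, and relative to flanks 0 either way. With tumour 11 turned these counts were 9 lower and 2 higher, and relative to flanks 6 lower and 4 higher. Turning it also raised the counts over all 20740 genes, from 411 lower and 589 higher to 2214 and 2149. Those relative to flanks rose too and are given in the last section. The 1 list gene called lower in the main setting was Ccne1, cyclin E1, on chromosome 7 with 1 probe. It was at -0.26 ± 0.16 (SD, n = 11; limma adjusted p 0.0208), in called losses in tumours 1, 2 and 7.

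In the p53 pathway 12 of 143 pairs lay in losses (8.39%) and 9 in gains. Short losses of at most 10 Mb held Trp63, the p53 relative of basal epithelium, in tumour 1 (23 probes at -0.28), and Trp73, another p53 relative, in tumour 8 (-0.21). Cdkn1a, the p21 inhibitor induced by p53, was in one in tumour 4 (-0.38 from 1 probe), and Bbc3, the death effector Puma, in tumour 2 (-0.28 from 1 probe). Pmaip1, the death effector Noxa, read 0.91 in tumour 2 from 1 probe in a segment at 0.00.

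Among the Rb and cell cycle genes 10 of 132 pairs lay in losses (7.58%) and 5 in gains (3.79%). The short losses held Ccnd1, cyclin D1, in tumour 1 (-0.24 from 1 probe) and E2f2, an E2F factor, in tumour 8 (-0.47). Homologous recombination genes had 20 of 198 pairs in losses (10.1%) and 7 in gains (3.54%). Among the short losses, Palb2, the partner of Brca2, was at -0.40 in tumour 1, with Rad52 at -0.28 and Fancd2 at -0.35 in the same tumour. Rad54l was at -0.13 in a loss in tumour 8. Xrcc3, with 1 probe, was at -0.27 in tumours 1 and 8 but 0.48 in tumour 2, there in a segment at 0.04.

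Damage signalling genes had 14 of 132 pairs in losses (10.6%) and 5 in gains (3.79%). Of these genes 1 lay in a short loss, the ubiquitin ligase Rnf8 in tumour 4 (-0.11). The focal rule was met upwards by Mre11a, the nuclease of the MRN complex, in tumour 3. Its 5 probes read 1.28 in a gain of 1.56 Mb (chr9:14367027-15931394) at 1.27, while in tumours 7 and 8 it lay in losses at -0.12 and -0.24. Atrip at 0.57 and Mdc1 at 0.53 met it in tumour 2, and Topbp1 at 0.71 in tumour 11, a value that turns with that array. In tumour 2, 2.81% of all genes met the rule upwards.

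Of the pairs of cadherin partners, 4 of 88 lay in gains (4.55%) and 2 in losses (2.27%), both losses of Ctnnb1, the beta-catenin gene. It read -0.37 in a short loss in tumour 8 and -0.01 in a broad one in tumour 1. Ctnnd1, the p120-catenin that stabilises E-cadherin, met the focal rule downwards in tumour 8, where its 4 probes were at -0.68 in a segment at -0.15.

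The other breast cancer suppressors had 17 of 209 pairs in losses (8.13%) and 14 in gains (6.7%). Nf1, the Ras inhibitor between Trp53 and Brca1 on chromosome 11, was the only list gene with a value near -1. Its 24 probes read -0.98 in tumour 1, in a segment of 0.85 Mb (chr11:78852316-79697736). The other list genes lost in tumour 1 lay in segments from -0.43 (Bbc3) to -0.29 (Trp63). How many copies of Nf1 the altered cells kept was not tested. Ncor1, a nuclear receptor corepressor, lay in losses in tumours 4, 7 and 8, in tumour 4 in a segment of 0.32 Mb at -0.36. Map2k4, a stress kinase, was at -0.38 in tumour 7 and -0.40 in tumour 8, in the same called segment as Trp53 in tumour 7 and the same joined run in tumour 8. Arid1a, a chromatin remodelling subunit, lay in short losses in tumour 1 (-0.33) and tumour 8 (-0.38). Foxp1 was at -0.23 in a loss of 1.06 Mb in tumour 6, and Cdkn2aip at -0.43 from 1 probe in tumour 4.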

How the data were processed

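Genomic DNA of 11 tumours, each against liver of the same mouse, was read on 2-colour Agilent arrays on 3 slides. The submitters' processing notes name Feature Extraction 10.5.1.1 and Partek. Per the file headers, version 11.0.1.1 read tumours 4, 7, 9 and 11, and positions are on mm9. The deposited scanner files give intensity per channel after the authors' background subtraction and dye normalization, and a log10 ratio. The authors' deposited value table holds log2 ratios.

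The log2 of the processed red over green intensity was averaged per probe, without outlier spots, and centred on the array median. Segments came from exact optimal partitioning (penalty 2, at least 5 probes). Genes were tested in R 4.3.3 with limma 3.58.1, two-sided, over all 20740 names, and called where the adjusted p was under 0.05 and the mean at least 0.1 from 0. Steps were tested on simulated data. The members and gene lists were chosen with earlier results of these data known. Named genes are the members, list genes in a loss of at most 10 Mb, past the focal rule or past limma (27 genes, of which 1 is not reported here), and the gene most like each member, beside neighbours. Alternatives were another background correction (normexp, on median signals, since 4 files hold no mean signals), other centring, filters, flanks and thresholds, and leaving out each tumour.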

Additional observations from a re-analysis of the deposited data

How the results depend on the processing

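No member's mean against its liver passed limma under any setting run. The counts over all genes, 411 lower and 589 higher, became 215 lower with genes of at least 3 probes, 264 and 218 with centring on the most common level, 1076 and 1186 with normexp, 1945 and 1814 with the slide as a block, 2214 and 2149 with tumour 11 turned, and 0 and 0 by the exact sign-flip permutation test, where 4642 genes had an unadjusted p below 0.05 (4739 in limma). Leaving out 1 tumour gave from 54 lower and 89 higher (without tumour 3) to 2008 lower and 2064 higher (without tumour 11). Relative to flanks, 206 lower and 273 higher became 23 and 33 with at least 3 probes, 770 and 668 with normexp, 1303 and 1175 with the slide block, 1471 and 1540 with tumour 11 turned, and 0 and 0 by sign-flip (3916 genes at an unadjusted p below 0.05), with 72 to 1224 lower and 105 to 1330 higher when 1 tumour was left out. Of the members, Trp53 relative to flanks passed with dim spots left out, with normexp, with the slide block and without tumour 9 (1 member called in each, against 0), so leave-one-out gave 0 to 1. The cause was not tested.

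Member losses, 3 as reported, numbered 5 with centring on the most common level, 5 at a threshold of 0.15, 5 at a penalty of 1 and 1 at a threshold of 0.3, and 1 to 3 when 1 tumour was left out, 1 without tumour 8. Member gains, 5 as reported, numbered 3 at a threshold of 0.3 and 3 to 5 when 1 tumour was left out, 3 without tumour 2 or tumour 8. The 1 focal pair was 0 with flanks of 2 Mb, 0 with flanks of 10 Mb, 0 at a threshold of 0.6 and 0 to 1 in leave-one-out. Trp53 minus Brca1 turned to 0.032 with normexp and 0.018 with dim spots left out, was -0.15 over segment means (added after seeing the data), and ran from -0.064 to 0.037 when 1 tumour was left out.

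Members near 0 changed sign: Cdh1 to 0.0081 with dim spots left out, 0.033 with the median over probes and 0.030 with tumour 11 turned (-0.034 to 0.014 with 1 tumour left out), Brca2 to 0.041 with normexp (-0.053 to 0.012). Relative to flanks, Atm went to 0.0030 with flanks of 2 Mb (-0.023 to 0.0035 with 1 tumour left out), Brca2 to 0.024 with normexp, and with tumour 11 turned Cdkn2a to 0.014 (-0.066 to 0.016), Brca1 to 0.034 (-0.029 to 0.0076) and Cdh1 to 0.0019. The GC fit, added after seeing the data, changed no member call. No paired analysis was possible because the design has 1 group, each tumour already being set against its own liver. The noise SD of 0.55 in tumour 9 and 0.51 in tumour 11 limits what 2 to 4 probes can show there.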
